A study of Mus musculus with 12 samples.

Results

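Paneth cells and non-Paneth cells of the small-intestinal crypt, both from mice whose glucocorticoid receptor gene was targeted for deletion, are compared here. The comparison holds 6 of the 12 RNA-seq libraries of the series, namely the 3 GRKO Paneth and the 3 GRKO non-Paneth libraries, which were taken by the genotype and the cell fraction in the sample titles. The question is what a Paneth cell expresses, beside the other cells of its crypt, when the receptor gene is so targeted. The other 6 libraries are the same 2 fractions of WT mice, and they serve to test where the GRKO comparison differs.

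All mice were C57BL/6J, and the study's methods give their age as 8 to 12 weeks. No treatment of these mice is named in the labels. The GRKO mice are GRvillinKO animals, in which villin drives the deletion, so the intestinal epithelium is targeted and not Paneth cells alone. Single cells were made from small-intestinal crypts, and the Paneth gate took those with CD24 and cKIT on the surface, a side scatter from medium upward and no CD31, TER119 or CD45. How the other fraction was gated is not stated in what was read here, so it is taken as a mixture of crypt cells. Besides the title, each sample has a genotype field, which reads WT for every Paneth and GRKO for every non-Paneth library, and therefore disagrees with the titles of the GRKO Paneth and the WT non-Paneth libraries. The study's methods speak of several WT mice for the Paneth cells, but neither they nor the labels tie any GRKO library to a mouse of its own, so p-values measure the spread between libraries, which may be technical.

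Paneth cells sit at the base of the crypt and release lysozyme and alpha defensins (the products of the Defa genes) from large apical granules, which keeps bacteria away from the stem cells. They also signal to those stem cells, with WNT3, EGF and the Notch ligand DLL4. The glucocorticoid receptor, encoded by Nr3c1, is a nuclear receptor that binds DNA as a dimer at paired sites once corticosterone is bound, and it also restrains inflammatory genes.

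The promoters of 5 genes that carry the comparison are shown, because their RNA was high in one fraction and scarce in the other. Each is the 250 bases before the start site in the RefSeq table of GRCm38.p6, 5′ to 3′ on the strand of the gene. Capitals mark 4 motifs, searched on both strands, namely TATAAA (the TATA box), ATCAAAG (bound by TCF and LEF factors of the Wnt pathway), CAGCTG (an E-box, the kind of site that MIST1 binds) and AGAACA, one arm of the paired site of the glucocorticoid receptor. They do not overlap here.
Lyz1: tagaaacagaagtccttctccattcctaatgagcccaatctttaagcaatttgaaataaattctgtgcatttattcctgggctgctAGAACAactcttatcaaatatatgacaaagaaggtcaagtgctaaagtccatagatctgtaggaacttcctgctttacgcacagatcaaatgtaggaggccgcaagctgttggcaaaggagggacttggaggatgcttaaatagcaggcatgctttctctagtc
Defa22: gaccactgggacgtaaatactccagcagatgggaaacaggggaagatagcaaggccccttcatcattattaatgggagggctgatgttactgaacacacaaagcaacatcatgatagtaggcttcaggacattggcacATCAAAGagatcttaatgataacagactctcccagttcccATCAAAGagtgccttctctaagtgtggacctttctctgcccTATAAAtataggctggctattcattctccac
Defa30: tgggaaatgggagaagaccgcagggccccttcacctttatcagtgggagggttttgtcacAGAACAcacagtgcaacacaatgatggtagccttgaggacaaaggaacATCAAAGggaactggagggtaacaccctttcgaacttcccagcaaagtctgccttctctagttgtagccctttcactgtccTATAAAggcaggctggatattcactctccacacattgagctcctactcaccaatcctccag
Mptx2: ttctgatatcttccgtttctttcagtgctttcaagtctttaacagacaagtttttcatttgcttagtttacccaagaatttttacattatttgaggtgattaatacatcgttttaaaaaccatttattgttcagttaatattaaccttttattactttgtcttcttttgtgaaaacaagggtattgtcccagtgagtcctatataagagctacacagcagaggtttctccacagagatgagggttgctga
Bhlha15: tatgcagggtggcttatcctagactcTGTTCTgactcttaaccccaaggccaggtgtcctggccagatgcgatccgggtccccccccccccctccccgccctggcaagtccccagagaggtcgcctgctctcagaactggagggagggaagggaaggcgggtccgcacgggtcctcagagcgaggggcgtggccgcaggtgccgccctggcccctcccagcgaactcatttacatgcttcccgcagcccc

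The windows lie at chr10:117292869-117293118, minus strand (Lyz1), chr8:21162027-21162276, plus strand (Defa22), chr8:21134400-21134649, plus strand (Defa30), chr1:173277757-173278006, minus strand (Mptx2) and chr5:144190036-144190285, plus strand (Bhlha15). The table held promoters of 16 Defa genes, and Defa24 was not among them. Of the 16, Defa2, Defa20, Defa23, Defa31, Defa32, Defa36 and Defa37 had too few counts to be tested here. The motif counts are therefore not limited to genes called higher in Paneth cells. TATAAA stood in 15 of those 16, against 12.4% of 32851 promoters of 27025 genes. ATCAAAG stood in 13 of the 16, against 3.21% of all promoters, and it occurs at 72 and 112 bases before the start in Defa22 and at 142 bases in Defa30. CAGCTG stood in 1 of the 16, against 13.0% of all. AGAACA stood in 9 of the 16, against 16.1% of all, and it is also found 164 bases before Lyz1 and 224 bases before Bhlha15. The full paired site, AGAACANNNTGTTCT, was in none of the 16 and in 0.00913% of all promoters. The window of Defa22 is identical to that of Defa21 over all 250 bases. It also matches those of the untested Defa2 and Defa20 at 245 of 250 bases each. The Defa promoters are therefore not independent of each other. These matches are letters in a window and are not evidence of binding.

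The GRKO Paneth libraries held 12511664 to 13965973 counts and the GRKO non-Paneth libraries 14713820 to 15910292. Levels are given as scaled CPM, counts relative to the library total (CPM) after TMM factors, which correct for the large part of a Paneth library that a few genes occupy. The factors were 0.661 to 0.812 in GRKO Paneth and 1.46 to 1.5 in GRKO non-Paneth libraries. Libraries are named in the order replicate 1, 2 and 3 throughout. In a bulk sample, fewer cells of a type and less RNA per cell cannot be told apart.

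The deleted gene was examined first. By library totals, Nr3c1 stood at 5.28, 4.73 and 12.1 CPM in GRKO Paneth and at 29.2, 19.6 and 36.2 CPM in GRKO non-Paneth libraries. The WT Paneth libraries had 33.7, 33.0 and 41.1 CPM and the WT non-Paneth libraries 134.6, 150.9 and 159.5 CPM. Every GRKO library lay below every WT library of its fraction, as the titles have it and not the genotype field, and RNA of the gene was left in both GRKO fractions. Replicate 3 had the most Nr3c1 of each GRKO fraction. On the scaled level the GRKO fractions overlapped, at 7.98, 5.82 and 15.4 against 20.1, 13.1 and 24.5. Nr3c1 was called lower in Paneth cells with a log2 fold change of -0.98 (SE 0.31, adjusted p = 0.0278), but leaving out GRKO Paneth replicate 1 or 2 or GRKO non-Paneth replicate 1 or 3 ended the call (adjusted p = 0.0988, 0.0856, 0.108 and 0.150).

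Of 13057 genes tested, 5116 (39.2%) differed between GRKO Paneth and GRKO non-Paneth cells at an adjusted p under 0.05. Among them 2343 (17.9% of those tested) were higher and 2773 (21.2%) lower in Paneth cells. A difference of over 4-fold was reached by 668 genes that were higher and 370 that were lower, and one of over 32-fold by 147 and 54. The 3 libraries of one fraction did not overlap those of the other for 52.6% of all genes tested. The split depends on the scaling. With library totals alone, 816 genes were higher and 9969 lower, and the median change over the genes tested moved, on the log2 scale, from -0.08 to -1.05. Directions of genes with small changes are therefore relative to the bulk of genes, and each list below is read against that median.

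**Figure D1:**
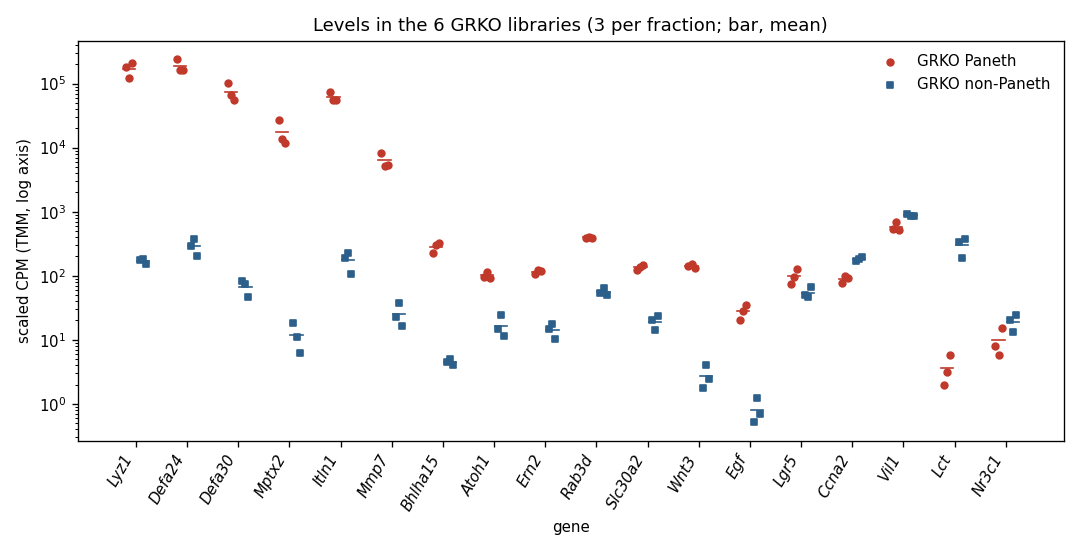
Scaled CPM (TMM, log axis) of 18 genes in each GRKO library, with circles for the 3 GRKO Paneth and squares for the 3 GRKO non-Paneth libraries and a bar at each mean. Lyz1, the Defa genes and Mptx2 lie about 3 powers of 10 apart between the fractions, Lgr5, Ccna2 and Vil1 lie close together, and the libraries of the fractions overlap in Nr3c1 only.

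Lysozyme and the alpha defensins had the largest median change of the lists examined. Lyz1 (ENSMUSG00000069515, chr10:117123698-117128775 in GRCm39), which encodes the lysozyme of Paneth granules, stood at 179786, 120157 and 206860 scaled CPM in GRKO Paneth and at 177, 185 and 152 in GRKO non-Paneth libraries. Its log2 fold change was 9.94 (SE 0.60, adjusted p = 1.35e-08), or 985-fold. Defa24 (ENSMUSG00000064213, chr8:22224506-22225490) stood at 244150, 160631 and 161179 and at 292, 368 and 202, with a log2 fold change of 9.36 (SE 0.61, adjusted p = 2.73e-08). Both genes were far apart in all 6 libraries, and their spread within a fraction was under 2-fold. Per length of the exons, Defa24 was the most abundant RNA of GRKO Paneth cells, at 350675 TPM, followed by Defa30 at 110981 and Lyz1 at 108412 TPM. Replicate 3 had the most Lyz1 of the Paneth libraries, with 145895 TPM against 91119 and 88224, while Defa24 was even at 366326, 349162 and 336536 TPM.

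All 21 of the tested genes among Lyz1 and the 28 Defa genes were higher in GRKO Paneth cells, with a median log2 fold change of 9.95 against -0.08 over all genes. The other 8 Defa genes had too few counts to be tested, at most 10 summed over the GRKO Paneth libraries, and the genes resemble each other so closely that reads shared by copies are not in these counts. In 15 members with more than 3 counts in the GRKO non-Paneth libraries the log2 fold change ran from 8.68 (Defa17) to 10.53 (Defa40). Defa30 stood at 101726, 65673 and 56183 and 82.05, 73.7 and 46.2 scaled CPM and Defa22 at 28889, 19667 and 17346 and 23.7, 22.6 and 12.6. Replicate 1 was the highest Paneth library in both. Defa38 (10.04), Defa39 (9.84), Defa29 (9.95), Defa34 (10.31), Defa5 (10.39) and Defa3 (9.46) had log2 fold changes that lay within 1 unit of each other. Defa28, at 72.4, 38.2 and 61.3 scaled CPM in Paneth cells, had 9.01.

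The remaining 6 members had 3 or fewer counts in all GRKO non-Paneth libraries together, so their size is loosely known. Defa35 had 4103 counts against 3, a ratio of 3104 with a 95% counting interval of 1062 to 15060. Defa41 had 2265 against 3, a ratio of 1714 (586 to 8316). Defa42 had 542 counts against 2, Defa27 117 against 1 and Defa43 104 against 1. Defa25 had 34 counts against none and was at least 25.7-fold higher, taking 3 counts over the group as the floor. With that bound the median of the list stayed at 9.95. The transcribed pseudogene Defa-ps7, with 2882 counts against none, was at least 2181-fold higher, and Defa-ps6 stood at 831, 373 and 342 against 0.653, 0.294 and 0.259 scaled CPM. Intervals and bounds cover counting error only.

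As a share of all counts, Lyz1 and the Defa genes took 45.8, 37.4 and 42.8% of the GRKO Paneth libraries, and 0.103, 0.115 and 0.0761% of the GRKO non-Paneth libraries. The mean in GRKO Paneth cells was 42.0% ± 4.25 (SD, n = 3), against 44.6% ± 2.35 in WT Paneth cells. The libraries overlapped, and the difference of -2.60 percentage points gave p = 0.5 in an exact permutation test, two-sided, in which 3 libraries against 3 cannot go below 0.1. None of the 21 genes was called for a difference between the GRKO and the WT comparison, and the median log2 fold change in WT was 9.93. The standard errors of the difference were 0.53 for Defa34, 0.69 for Defa35 and 0.79 for Defa30, so moderate differences could be missed. Single members stood apart in the Paneth libraries, which was not tested gene by gene. Defa35 stood at 154.2, 105.7 and 154.3 scaled CPM in GRKO and 218.5, 281.5 and 261.2 in WT. By library totals Defa21 stood at 16252, 13182 and 11953 against 23025, 24375 and 26132 CPM, while Lyz1, Defa24 and Defa30 overlapped.

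Most genes of the list of other Paneth granule and antimicrobial genes were also called higher in GRKO Paneth cells. The exceptions were Pigr and the Reg3 lectin genes, of which Reg3b and Reg3g were not called in either direction. Of 14 tested members, 10 were higher and 2 lower, with a median log2 fold change of 7.26. Mptx2, a mucosal pentraxin, stood at 26714, 13570 and 11986 scaled CPM against 18, 10.99 and 6.29 and had a log2 fold change of 10.53 (SE 0.95, adjusted p = 1.86e-05). The lectin gene Itln1 stood at 74128, 55815 and 55640 against 188, 225 and 106 (8.48, SE 0.54). Clps, which encodes the colipase better known from the pancreas, stood at 4489, 3661 and 2871 against 7.37, 6.33 and 7.11 (9.05), and Habp2, which encodes a secreted serine protease, at 686, 784 and 605 against 2.24, 3.48 and 2.11 (8.04). In these 4 genes the libraries of the fractions did not come near each other. Mmp7, whose product cleaves the alpha defensin precursors in the mouse, had a log2 fold change of 7.96 (adjusted p = 1.98e-06), the angiogenin gene Ang4 7.47 and the phospholipase gene Pla2g2a 7.24.

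The 2 members called lower were Pigr, the receptor that carries IgA into the lumen (-0.70, adjusted p = 0.00278), and Reg3a (-2.82, adjusted p = 0.0115). Reg3b stood at 260.5, 391.7 and 200.1 scaled CPM in GRKO Paneth and 1156, 1368 and 949.5 in GRKO non-Paneth libraries, which did not overlap, with an adjusted p of 0.218. Reg3g stood at 1905, 1958 and 940.3 against 837, 973 and 576, with adjusted p = 0.289. Both encode lectins that bind bacterial walls.

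The RNA of Paneth genes found in the non-Paneth fraction was not a fixed share of the Paneth level. Goblet cells make Spink4 too, and which cells held the RNA of these genes was not tested. The mean of the GRKO non-Paneth libraries was 0.0675% of the mean of GRKO Paneth libraries for Mptx2, 0.0903% for Defa30, 0.102% for Lyz1 and 0.152% for Defa24. It was 0.2795% for Itln1, 0.402% for Mmp7, 0.565% for Ang4, 1.61% for Bhlha15 and 3.74% for Spink4.

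The transcription factors of the secretory lineage were higher as a group in GRKO Paneth cells. Of 11 members 10 were called higher, none lower, and the median log2 fold change was 1.84. Bhlha15 (ENSMUSG00000052271, chr5:144127086-144131259), which encodes MIST1, a factor that sets up the secretory apparatus of exocrine cells, stood at 226, 299 and 321 scaled CPM against 4.57, 5.03 and 4.01. The log2 fold change was 5.95 (SE 0.23, adjusted p = 9.50e-11), or 62.01-fold, so the 3 marker genes of the comparison were all high in the fraction sorted as Paneth cells. Creb3l4 stood at 106, 86.3 and 97.05 against 10.8, 15.2 and 9.83 (3.01, SE 0.21). Gfi1, a repressor that keeps Paneth and goblet precursors from the endocrine fate, stood at 18.9, 29.99 and 28.02 against 2.704, 5.92 and 2.42 (2.80, SE 0.30). Atoh1, which commits crypt cells to secretion, stood at 95.3, 115 and 93.1 against 14.5, 24 and 11.5 (2.60, SE 0.30). Replicate 2 was the highest non-Paneth library for all 3. With library totals alone 6 of the 11 were called higher and 1 lower, and the median was 0.87.

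The factors of absorptive cells and of intestinal regions went the other way. None of 9 was called higher and 6 were lower, with a median log2 fold change of -0.66. Maf stood at 1.81, 5.38 and 3.22 scaled CPM in GRKO Paneth and 33.5, 30.1 and 40.6 in GRKO non-Paneth libraries (-3.28, SE 0.54, adjusted p = 0.00108). Hnf4g, a driver of the enterocyte programme, stood at 29.3, 30.1 and 33.6 against 95.8, 80.9 and 113 (-1.64, SE 0.29). Gata4, which marks the proximal intestine, had -1.21 (SE 0.15) and Klf5, a factor of dividing crypt cells, -0.82 (SE 0.13). The libraries of the fractions did not overlap for any of these 4 genes.

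Genes of the endoplasmic reticulum (ER), which folds and exports secretory proteins, were higher in GRKO Paneth cells by smaller amounts. Of 30 members 22 were called higher and none lower, with a median log2 fold change of 0.88, a direction that turned with library totals alone (median -0.08, with 9 higher and 8 lower, beside -1.05 over all genes). Ern2, which encodes the stress sensor IRE1-beta of gut epithelium, stood at 107, 121 and 119.6 scaled CPM against 14.6, 17.7 and 10.3 (3.03, SE 0.21, adjusted p = 8.10e-08). The chaperone gene Dnajb9 stood at 92.1, 85.9 and 81.7 against 12.7, 14.7 and 13.9 (2.65, SE 0.26) and the oxidase gene Ero1b at 38.5, 23.1 and 38.8 against 7.65, 4.32 and 4.66 (2.59, SE 0.26). Herpud1, which acts in the disposal of misfolded proteins, stood at 374, 295 and 289.7 against 61.4, 69.3 and 54.2 (2.37, SE 0.18). The 3 libraries of a fraction lay within 2-fold of each other in these genes. The large resident chaperones moved less, with 0.85 for Hspa5 (adjusted p = 0.00984) and 0.05 for Hsp90b1 (adjusted p = 0.827).

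Of 13 tested genes of granule and vesicle traffic, 11 were higher and none lower, with a median of 1.61. Copz2, a subunit of the coat of retrograde vesicles, stood at 52.2, 40.5 and 45.7 scaled CPM against 0.326, 0.503 and 0.345 (6.84, SE 0.27, adjusted p = 1.25e-10), and the cargo receptor gene Tmed6 at 265, 163 and 202 against 3.96, 6.63 and 4.7 (5.36, SE 0.23). Kdelr3, which returns ER proteins from the Golgi, had 3.06 (SE 0.32). Rab3d, a GTPase on mature secretory granules, stood at 389.6, 406 and 394 against 53.2, 64.8 and 49.4 (2.83, SE 0.18), with the Paneth libraries within 5% of each other. With library totals alone 8 of the 13 were higher and 2 lower.

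Paneth granules hold zinc, and the zinc genes were split. Of 10 members 2 were higher and 4 lower, a share called of 60% against 39.2% of all genes tested. Slc30a2, which encodes the transporter that loads zinc into granules, stood at 121, 135 and 148 scaled CPM in GRKO Paneth and at 20.2, 14.1 and 23.2 in GRKO non-Paneth libraries (2.81, SE 0.18, adjusted p = 1.97e-08). Its log2 fold change in WT was 1.14, and the difference of 1.67 (SE 0.24) had an adjusted p of 4.96e-04. The zinc uptake transporter genes Slc39a5 and Slc39a4 were lower in Paneth cells, with -1.13 (SE 0.14) and -1.10 (SE 0.18). The exporter gene Slc30a1 had -1.03 (SE 0.23).

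**Figure D2:**
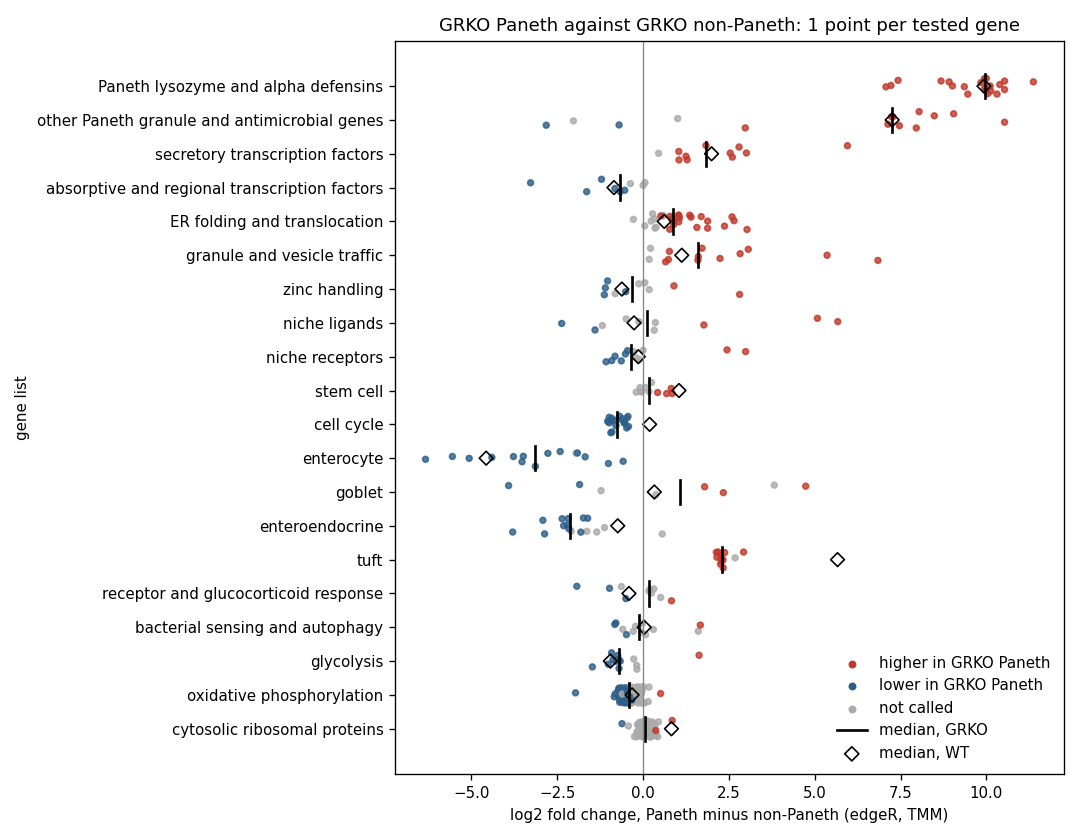
Log2 fold change of each tested gene (GRKO Paneth minus GRKO non-Paneth, edgeR with TMM), 1 row per gene list, coloured by whether it was called higher, lower or not called, with a black bar at the GRKO median and a diamond at the WT median. The medians of the lysozyme and defensin list coincide (9.95 and 9.93), while those of the tuft list stand apart (2.29 and 5.67).

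Wnt3 and Egf, signals that sustain stem cells, were far higher in GRKO Paneth cells. Of 10 niche ligands 3 were called higher and 2 lower, with a median of 0.10 that turned to -0.86 with library totals alone. The share called was 50%, against 39.2% of all genes tested. Wnt3 stood at 140.5, 149.9 and 134 scaled CPM in GRKO Paneth and 1.77, 4.07 and 2.42 in GRKO non-Paneth libraries (5.67, SE 0.30, adjusted p = 2.19e-08). Egf stood at 20.1, 27.96 and 35.1 against 0.513, 1.22 and 0.6899 (5.08, SE 0.38, adjusted p = 3.70e-07). Dll4 stood at 38.9, 42.3 and 56.05 against 13.2, 15.2 and 11.8 (1.77, SE 0.20). The lowest Paneth library exceeded the highest non-Paneth library in each. None of the 10 was called for a difference from the WT comparison, where the log2 fold changes of Wnt3, Egf and Dll4 were 6.08, 5.09 and 1.13. The EGF receptor ligand Areg was called lower on 2 counts against 26, a ratio of 5.73 in favour of non-Paneth cells with a counting interval of 1.43 to 49.8, and 5 of the 6 single-library omissions ended that call, with adjusted p from 0.0660 to 0.128.

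Among 12 receptors of the niche 2 were higher and 6 lower, a share called of 66.7% against 39.2% of all genes tested. Kit, one of the proteins the cells were sorted by, stood at 219.5, 272 and 211 scaled CPM against 31.4, 41.7 and 15.4 (2.99, SE 0.35, adjusted p = 7.68e-05). Cd24a, the other, stood at 2264, 2444 and 2083 against 295, 404 and 244 (2.85, SE 0.21), and both are genes whose protein the sort selected. Ephb3, which holds Paneth cells at the crypt base, stood at 203, 207 and 184 against 37.02, 34.8 and 37.2 (2.45, SE 0.14, adjusted p = 8.52e-09). Fzd5, a Wnt receptor that Paneth cell maturation needs, was lower in Paneth cells, at 55.9, 87.9 and 69.97 against 165, 134 and 152 (-1.08, SE 0.16), and so was Erbb2 (-0.91, SE 0.15).

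Stem cell genes were found in both fractions at like levels. Of 11 members 4 were called higher in GRKO Paneth cells and none lower, with a median log2 fold change of 0.18. That share called, 36.4%, was below the 39.2% of all genes tested. With library totals alone none was higher and 8 were lower. Lgr5, the R-spondin receptor that marks the stem cells, stood at 74.2, 94.5 and 127 scaled CPM against 49.5, 47.2 and 67.1 (0.85, SE 0.18, adjusted p = 0.00141). Smoc2 stood at 225, 224 and 229.7 against 169, 158 and 178 (0.42, SE 0.11), a call that was lost with no filter on low counts (adjusted p = 0.1003). The Wnt and BMP pathway genes Znrf3 and Rgmb had 0.82 (SE 0.15) and 0.69 (SE 0.13). All 4 directions turned with library totals alone, where only that of Smoc2 passed the test (-0.55, adjusted p = 0.00140).

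All 19 cell cycle genes were lower in GRKO Paneth cells, against 21.2% of all genes tested, with a median of -0.77. With library totals alone all 19 were lower too (median -1.74). The median over all genes was then -1.05, so that setting could hardly have turned their direction. Ccna2 stood at 77.02, 98.9 and 91.4 scaled CPM against 172, 180 and 194 (-1.03, SE 0.13, adjusted p = 1.79e-05). Birc5, a survival and mitosis gene, stood at 39.2, 40.9 and 38.7 against 69.7, 76.98 and 88.5 (-0.98, SE 0.13). The mitotic cyclins Ccnb1 (-0.99, SE 0.14) and Ccnb2 (-0.94, SE 0.13) were lower by like amounts.

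Enterocyte genes marked the non-Paneth side. Of 15 members 14 were called lower in GRKO Paneth cells and none higher, with a median log2 fold change of -3.14. Lct, the brush border lactase, stood at 1.94, 3.09 and 5.87 scaled CPM in GRKO Paneth and 336, 190.2 and 369.6 in GRKO non-Paneth libraries (-6.33, SE 1.17, adjusted p = 0.0028). The apolipoprotein genes Apoa4 and Apoa1 had -5.55 (SE 0.96) and -5.06 (SE 1.06), and the alkaline phosphatase gene Alpi -4.40 (SE 0.77). Vil1, the villin gene whose promoter drives the deletion, stood at 544, 692 and 523 against 915, 844 and 869 (-0.58, SE 0.16, adjusted p = 0.00902), a call that ended without GRKO non-Paneth replicate 1 (adjusted p = 0.0627).

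The 10 genes lowest in Paneth cells were mostly of the same kind. They include the transporter genes Slc6a19, Slc5a12 and Slc7a15 (-5.51, -6.14 and -6.25), the detoxifying enzyme gene Cyp3a11 (-5.91), and the transcription factor gene Creb3l3 (-5.74, SE 0.73). Nlrp9b had 3 counts in the GRKO Paneth libraries against 741, a ratio of 109 in favour of non-Paneth cells with a counting interval of 37.1 to 529. The alkaline phosphatase gene Akp3 stood at 46.4, 3.82 and 5.002 in the non-Paneth libraries, far from even, and its call (-6.72, adjusted p = 0.0265) ended without GRKO Paneth replicate 1, 2 or 3 (adjusted p = 0.0689, 0.0801 and 0.0818).

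Goblet cell genes went both ways, with 3 of 8 higher and 2 lower in GRKO Paneth cells. The share called was 62.5%, against 39.2% of all genes tested. Spink4, which Paneth and goblet cells both make, stood at 13122, 6799 and 6039 scaled CPM against 252, 492 and 228 (4.74, SE 0.41, adjusted p = 1.60e-06), and the kallikrein gene Klk1 at 354, 376 and 314 against 51.8, 91.5 and 63.2 (2.34, SE 0.23). Zg16, which encodes a mucus lectin, was lower, at 69.4, 94.1 and 74.4 against 798, 1197 and 1598 (-3.92, SE 0.66, adjusted p = 0.0014). Retnlb, an antibacterial protein gene of type 2 immunity, stood at 123, 83.97 and 7.29 against 5.83, 8.94 and 0.302, with replicate 3 far below the others in both fractions (3.82, adjusted p = 0.0562). It was called in 4 of the alternatives, among them without GRKO Paneth replicate 3 (adjusted p = 0.0322) and with DESeq2 (adjusted p = 0.0307).

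Enteroendocrine genes were lower in GRKO Paneth cells. Of 16 members 11 were called lower and none higher, with a median of -2.13. The hormone genes Cck and Tac1 stood at 3.63, 2.29 and 3.69 against 25.4, 29.8 and 16.9 (-2.92, SE 0.38) and at 2.66, 2.38 and 1.33 against 12.5, 17.6 and 16 (-2.87, SE 0.47). Scg2, a granin gene, had -2.36 (SE 0.46). Nts had -3.80 (adjusted p = 0.0301), and its call ended without GRKO Paneth replicate 2 or 3 or GRKO non-Paneth replicate 2 or 3 (adjusted p = 0.0818, 0.0884, 0.0754 and 0.0951).

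Tuft cell genes were higher in the fraction sorted as Paneth cells, and the libraries of a fraction disagreed on them. Tuft cells are chemosensory cells of the epithelium that signal to the immune system. Of 12 tested members 11 were higher and none lower, with a median log2 fold change of 2.29. Trpm5, the channel of taste transduction, stood at 304, 346 and 138 scaled CPM in GRKO Paneth and 54.9, 81.05 and 20.1 in GRKO non-Paneth libraries (2.33, SE 0.57, adjusted p = 0.0107). The leukotriene synthase gene Ltc4s stood at 25.8, 28.8 and 9.28 against 4.06, 6.12 and 2.07 (2.38, SE 0.47). Gnat3 had 2.93 (SE 0.72), which was not called without GRKO Paneth replicate 2 (adjusted p = 0.0905), and Sucnr1 was not called (2.68, adjusted p = 0.0604) but was in 5 of the alternatives. The summed level of the 13 listed genes was 1263, 1654 and 546.9 scaled CPM in GRKO Paneth libraries and 259.7, 376.3 and 88.8 in GRKO non-Paneth libraries, so that replicate 2 was the highest and replicate 3 the lowest in both fractions. That sum was 0.0835, 0.134 and 0.0430% of the counts in GRKO Paneth libraries. Fitted on the 6 GRKO libraries alone, 6 of the 12 were called higher, and so they were with library totals alone. The part of tuft cell RNA in the other results was not tested.

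Blood, endothelial and stromal genes were close to absent. Of 15 listed genes 4 had enough counts to be tested, and none was called with the filter and scaling used here and no replicate block. Acta2, Col1a1, Col3a1, Cdh5 and Hba-a1 had no counts in either GRKO fraction, and Cd3e, Cd3g, Cd8a, Cd79a and Hbb-bs at most 2 in a fraction. Ptprc, which encodes CD45, stood at 18.98, 28.8 and 2.08 scaled CPM against 3.31, 6.08 and 0.302 (2.36, adjusted p = 0.126) although the Paneth cells were sorted for lack of CD45. It was higher in the Paneth library of each replicate number, and its order over the replicates, 2 above 1 above 3 in both fractions, was that of the tuft genes. Jchain, Itgae and Cd68 stayed at or below 1 scaled CPM in every GRKO library.

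**Figure D3:**
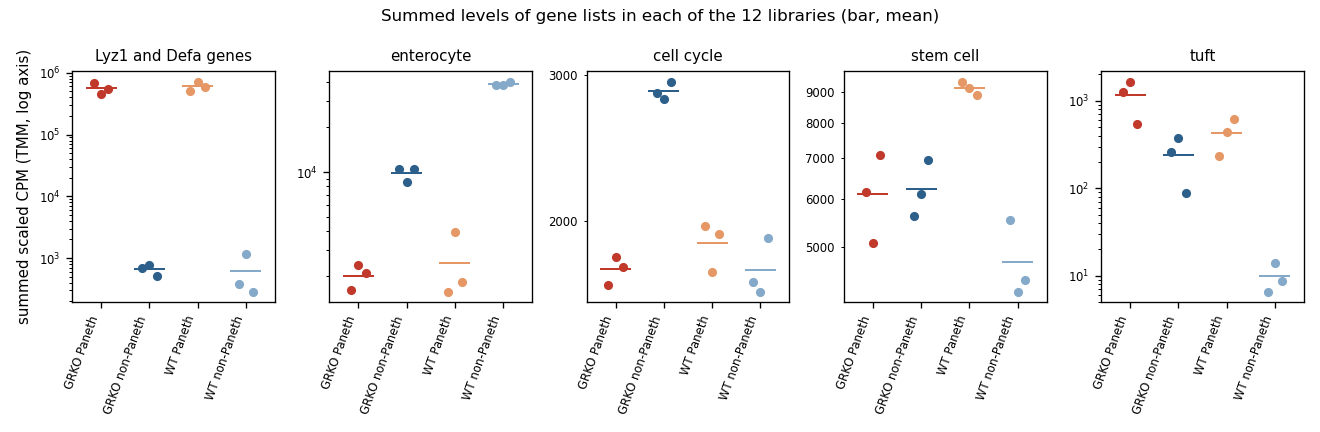
Summed scaled CPM (TMM, log axes) of 5 gene lists in each of the 12 libraries, 1 point per library with a bar at the group mean. The lysozyme and defensin sums overlap between genotypes, while GRKO non-Paneth libraries sit apart from WT non-Paneth libraries in enterocyte, cell cycle and tuft genes. Stem cell sums stand apart in the Paneth libraries (5064 to 7078 in GRKO, 8896 to 9352 in WT) and nearly meet in the non-Paneth libraries.

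Of 10 tested members of the list of receptor and glucocorticoid response genes 1 was higher and 3 lower in GRKO Paneth cells, Nr3c1 among them, a share called (40.0%) close to the 39.2% of all genes tested, with a median of 0.18 that turned to -0.78 with library totals alone. Sgk1, a kinase gene induced by glucocorticoids in many tissues, stood at 2.18, 4.15 and 3.598 scaled CPM against 9.14, 12 and 17.4 (-1.93, SE 0.38, adjusted p = 0.00202). Tsc22d3, which encodes GILZ, had -0.50 (adjusted p = 0.0283). Klf9 was the member called higher, at 33.9, 48.95 and 39.9 against 26.7, 23.2 and 19.2 (0.83, SE 0.19), a direction that turned with library totals alone (-0.13, adjusted p = 0.572). Hsd11b2, which inactivates corticosterone, stood at 8.59, 16.7 and 7.76 against 15.5, 23.9 and 12.1 (adjusted p = 0.166), and it was called lower in 4 of the alternatives, among them without GRKO Paneth replicate 2 (adjusted p = 0.0236).

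In the list of bacterial sensing and autophagy 1 of 12 tested genes was higher and 3 were lower, a share called (33.3%) below the 39.2% of all genes tested. Atg7, an enzyme of autophagosome formation that Paneth granules depend on, stood at 47.9, 55.2 and 66.7 scaled CPM against 17.6, 17.2 and 18.5 (1.67, SE 0.15, adjusted p = 5.20e-07). Kcnn4, a potassium channel gene, had -0.79 (SE 0.14) and Tlr2 -0.82 (SE 0.19). Tlr4 stayed below 1 scaled CPM in every GRKO library, and Nod2 had -0.59 (adjusted p = 0.122).

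Genes of energy metabolism tended to be lower in GRKO Paneth cells. The glycolysis list had 10 of 14 genes lower, 1 higher and a median of -0.71, and the oxidative phosphorylation list 39 of 82 tested genes lower, 1 higher and a median of -0.40. The shares called were 78.6% and 48.8%, against 39.2% of all genes tested. Pfkp stood at 53.9, 74.5 and 41 scaled CPM against 182, 154 and 135 (-1.48, SE 0.26), and Eno1 and Pkm had -1.01 (SE 0.16) and -0.92 (SE 0.16). The hexokinase gene Hk1 was the exception, at 33.4, 42.9 and 18.9 against 8.77, 14.1 and 7.85 (1.63, SE 0.31, adjusted p = 0.00116), and it was no longer called with library totals alone (0.66, adjusted p = 0.0529). Cox7a1 (-1.97, SE 0.28), Cyc1 (-0.84, SE 0.13), Sdha (-0.81, SE 0.12) and Uqcrc1 (-0.72, SE 0.12) moved most among the respiratory genes. Mitochondrially encoded genes took 1.08, 0.779 and 0.976% of the counts of GRKO Paneth libraries and 2.85, 2.97 and 3.04% of GRKO non-Paneth libraries. These shares are not scaled. Lyz1 and the Defa genes took a mean of 42.0% of the GRKO Paneth counts, which lowers every other share in those libraries. Cytosolic ribosomal protein genes hardly separated the fractions, with 2 of 77 higher, 1 lower and a median of 0.07, but with library totals alone 76 of the 77 were lower (median -0.92, beside -1.05 over all genes). Rps27l had 0.85 (SE 0.18) and Rps4l -0.61 (SE 0.16), the second not called without GRKO non-Paneth replicate 3 (adjusted p = 0.0667). Rpl41 (0.45) and Rpl9 (0.43) were not called.

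**Figure D4:**
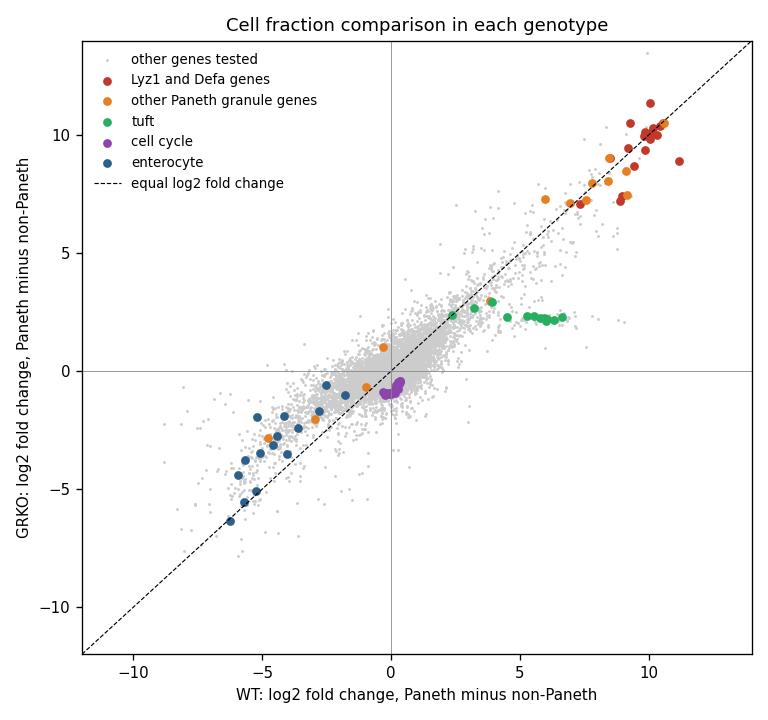
Log2 fold change of Paneth minus non-Paneth cells in GRKO (vertical) against WT (horizontal), 1 point per gene of 13057 tested, with a dashed line where both are equal. Lysozyme, defensin and other granule genes lie along the line, enterocyte genes lie mostly above it, and tuft genes (GRKO median 2.29, WT median 5.67) lie mostly below it.

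The GRKO comparison was then set against the same comparison in WT cells, which shares none of its libraries. Over the genes, none of which is an independent replicate, the log2 fold changes of both genotypes had a Pearson correlation of 0.856, and the slope of GRKO on WT was 0.699. The difference itself was called for 2445 of the 13057 genes (18.7%), of which 1496 were higher and 949 lower in GRKO. This split depends on the scaling as well. With library totals alone, 751 were higher and 1836 lower, and the median difference over all genes moved from -0.008 to -0.28. Leaving out WT non-Paneth replicate 2 reduced the 2445 to 1562. Of the 5116 genes called in the GRKO comparison, 3790 were not called for a difference.

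Lysozyme and the defensins were not among the genes called for a difference. Given the standard errors above, that does not show equal changes in both genotypes. None of the 21 lysozyme and defensin genes and none of the 14 other granule genes was called without a replicate block, and 1 of 11 secretory factors was (Tcf7l2, 0.83, adjusted p = 0.0376). Among the ER genes Edem1 (1.25) and Ddit3 (2.10) were called higher in GRKO, and in the traffic list Sec24d (1.86), Vamp8 (0.88), Stxbp2 (0.71) and Kdelr2 (0.56). In the zinc list 4 of 10 were called, all higher, beside 18.7% of all genes tested that were called in either direction.

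Some other lists held a larger share of genes that differed than the 18.7% of all genes tested. The difference was called lower for 18 of 19 cell cycle genes, 8 of 11 stem cell genes, 51 of 77 ribosomal protein genes and 4 of 12 tuft genes, and higher for 5 of 15 enterocyte genes and 4 of 14 glycolysis genes. It was called for 2 of 16 enteroendocrine and none of 8 goblet genes, both below 18.7%. With the replicate block it was called for 8 of 16 enteroendocrine, 1 of 8 goblet and 9 of 12 tuft genes. The levels of the lists differed between genotypes in one fraction or the other. Summed enterocyte genes stood at 8520 to 10557 scaled CPM in GRKO non-Paneth and 38071 to 40312 in WT non-Paneth libraries, and cell cycle genes at 2808 to 2948 against 1643 to 1907. Tuft genes stood at 88.8 to 376.3 against 6.56 to 14.1. In the Paneth libraries the corresponding ranges were 1614 to 2364 (GRKO) and 1577 to 3935 (WT) for enterocyte genes, 1675 to 1810 and 1735 to 1971 for cell cycle genes, and 546.9 to 1654 and 236.4 to 616.8 for tuft genes. Stem cell genes stood apart in the Paneth libraries, at 5064 to 7078 in GRKO and 8896 to 9352 in WT, while the non-Paneth libraries stood at 5628 to 6940 and 4216 to 5531. Ribosomal protein genes did so too, at 30791 to 43948 against 46906 to 65200, and overlapped in the non-Paneth libraries, at 31629 to 35674 against 28523 to 34794. The gate of the non-Paneth cells and the makeup of that fraction cannot be told apart from the genotype here, and their part in the differences was not tested.

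The 5 genes with the largest positive difference were Trim38, Ltb4r2, Gprc5a, Slc16a3 and Slc25a34. Their log2 fold changes in WT lay between -5.57 and -3.50, and in GRKO between -1.22 and 0.30. In the same order, their means in the WT Paneth libraries were 1.17, 0.227, 2.87, 1.53 and 0.792 scaled CPM. Those means rest on few counts, so the sizes of the differences are loosely known. Trim38, a regulator of innate signalling, stood at 5.92, 10.9 and 1.704 scaled CPM in GRKO Paneth and 5.501, 4.53 and 5.13 in GRKO non-Paneth libraries, against 0.09503, 2.104 and 1.302 and 22.98, 16.6 and 19.5 in WT. Ltb4r2, a leukotriene receptor gene, was the only one of the 5 called in the GRKO comparison (-1.22, adjusted p = 0.0104). Without GRKO Paneth replicate 2 or GRKO non-Paneth replicate 1 it was not called there (adjusted p = 0.0509 and 0.0824). The genes with the most negative difference were Sst, the somatostatin gene of endocrine D cells, and the tuft cell genes Plcb2, Rgs13, Pik3r5 and Pou2f3. The means of these tuft genes in the WT non-Paneth libraries, 0.256, 0.592, 0.683 and 0.301 scaled CPM, also rest on few counts. Sst stood at 8.101, 10.1 and 6.44 in GRKO Paneth and 33.1, 35.9 and 41.5 in GRKO non-Paneth libraries, and at 24.6, 31.1 and 12.2 and 0.891, 4.13 and 3.42 in WT, so the fraction with the higher level changed between genotypes. Pou2f3, the master factor of tuft cells, stood at 55.4, 68.3 and 27.5 against 10.3, 15.5 and 5.82 in GRKO and at 12.3, 18.8 and 26.99 against 0.0637, 0.465 and 0.374 in WT.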

How the data were processed

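RNA of sorted crypt cells was sequenced from 12 libraries, and the 6 GRKO libraries were compared. Per the study's methods and the submitters' processing notes, the authors trimmed single-end reads (Trimmomatic 0.39) and counted them per gene with STAR 2.7.10a on mm39. The deposited values are raw counts per gene, not normalized, and the counted strand is not stated in what was read here. GENCODE vM39 named 54749 of 55414 gene IDs. Reads that map to several places are not in STAR gene counts, which lowers near-identical genes such as the defensins.

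Genes were filtered with filterByExpr of edgeR 4.0.16 (R 4.3.3), which left 13057, and tested with TMM factors and the quasi-likelihood test over all 4 groups, without a replicate block. Adjusted p-values are Benjamini-Hochberg over all genes tested, called under 0.05, and a count of 3 was the floor. Without adjustment, 6180 genes had p under 0.05 in the GRKO comparison and 4345 in the difference between genotypes. On simulated data of 12813 genes, 71% of genes changed by a log2 of 1 and 89% of those changed by 2 were recovered in the GRKO comparison, and 5.33% of calls were unchanged genes. For the difference between genotypes 58% and 82% were recovered, and 9.68% of calls were unchanged genes, above the nominal 5%. Apart from the changed genes, the simulation gave both fractions of a genotype the same mean for each gene. It lacked the unequal makeup of the real libraries, so these rates may not hold for the real comparison.

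Same-numbered GRKO libraries had deviations from their group means that correlated at 0.0129, 0.262 and 0.465, and same-numbered WT libraries at 0.349, 0.229 and 0.238. One pair fell under the limit of 0.1, and no source says that a number marks a mouse, so the numbers were not taken as pairs. Every other Paneth library correlated best with its own number, and results with a replicate block are given below. No 2 libraries of a group agreed within sampling noise (chi-square per degree of freedom 12.3 to 47.1). Depth was 11126297 to 15910292 counts.

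The comparison and the gene lists were chosen with earlier results of these data known. Named were all tested members of the lysozyme and defensin list, the up to 4 largest changes of each other list, Nr3c1, Vil1, Cd24a and Kit, the 10 largest changes in each direction and the 5 largest differences from WT in each direction, the last 2 sets among called genes with at least 10 CPM in a group. One gene that the rule names is not reported here. Mmp7, Ang4, Pla2g2a, Pigr, Reg3a, Reg3b, Reg3g, Hspa5, Hsp90b1, Tsc22d3, Nod2, Tcf7l2, Edem1, Ddit3, Sec24d, Vamp8, Stxbp2, Kdelr2 and the immune and stromal genes at or near 0 were named after their values were seen. Alternatives were DESeq2 1.42.0, other scalings and filters, a stricter threshold, the replicate block, the GRKO libraries alone and the omission of each library.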

Additional observations from a re-analysis of the deposited data

Results flagged for a closer look

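The comparison of Paneth with non-Paneth cells differed between GRKO and WT, by an interaction term in the edgeR fit, for 2445 genes in all. Values below are the log2 fold change in GRKO minus that in WT. Among the named genes the difference was positive for Trim38 (4.46), Ltb4r2 (4.35), Gprc5a (3.85), Slc16a3 (3.32), Slc25a34 (3.16), Vil1 (1.93), Slc30a2 (1.67), Cox7a1 (1.64), Pfkp (1.42), Slc30a1 (1.23), Slc39a4 (1.07), Pkm (0.81) and Eno1 (0.75). It was negative for Lgr5 (-0.77), Smoc2 (-0.78), Ccna2 (-0.79), Rgmb (-0.80), Kcnn4 (-0.82), Ccnb2 (-0.89), Ccnb1 (-0.92), Tlr2 (-0.93), Birc5 (-0.99), Trpm5 (-2.95), Pou2f3 (-3.67), Pik3r5 (-3.98), Rgs13 (-4.03), Plcb2 (-4.21) and Sst (-5.15). Leaving out 1 of the 12 libraries at a time ended the call for Rgs13 and Trpm5 in 10 omissions each, Lgr5 in 9, Pik3r5 in 8, Gprc5a and Eno1 in 7 each, Plcb2 in 6, Slc16a3 and Tlr2 in 5 each, and Cox7a1, Pkm and Slc30a1 in 1 each. The call for Trim38 was lost with the replicate block (adjusted p = 0.0613). Groups of 3 libraries were not searched for outlying samples.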

How the results depend on the processing

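The GRKO comparison gave 5116 calls, and 10785 with library totals alone (816 higher, 9969 lower). It gave 5178 with DESeq2, 4957 with RLE factors, 4970 with TMM factors set without Lyz1 and the Defa genes, 5565 with no filter and 4926 with the GRKO libraries alone. With at least 10 counts in every library of a group it gave 4760, of which 56.7% were higher instead of 45.8%. Without one library it gave 3981 to 4606. The difference from WT, 2445 genes, became 955 at a false discovery rate of 1% and 1562 to 2610 without one library, the lowest without WT non-Paneth replicate 2. With the replicate block the counts were 5521 and 2977. GRKO Paneth replicate 1 correlated better with non-Paneth replicate 2 than with its own number. GRKO Paneth replicates 2 and 3 and each WT Paneth library correlated best with their own. The block also called Ptprc (2.42, adjusted p = 4.36e-05), Sucnr1 (2.65, adjusted p = 6.84e-05), Retnlb and Hsd11b2 in the GRKO comparison, did not call Areg there, and called the difference for 2 of 14 other granule, 9 of 12 tuft, 8 of 16 enteroendocrine and 73 of 77 ribosomal protein genes. Ptprc was also called with no filter on low counts. With library totals alone the log2 fold changes of Lgr5 (-0.10), Znrf3 (-0.14), Rgmb (-0.28), Smoc2 (-0.55), Klf9 (-0.13), Rps27l (-0.15), Rpl41 (-0.56), Rpl9 (-0.58) and Trim38 (-0.66) changed sign. Without one library Trim38 ran from -0.45 to 0.75, the low end without GRKO Paneth replicate 2. Uncalled genes near 0 changed sign as well. Cd68 became 0.039 with DESeq2, 0.042 with RLE factors and 0.017 with TMM factors set without Lyz1 and the Defa genes, and ran from -0.38 to 0.43 without one library. Gprc5a became 0.029, 0.044 and 0.022 in the same order, 0.085 with at least 10 counts and 0.076 with the GRKO libraries alone, and ran from -0.72 to 0.44 without one library. The shares of Lyz1 and Defa genes had no test that 3 against 3 libraries could pass. Depth limits the 6 defensins with 0 to 3 counts in non-Paneth cells, and leaves 8 Defa genes untested.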
